A study of Mus musculus with 12 samples.

Results

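16T and KP1 are 2 lines of mouse small cell lung cancer (SCLC). With an Nfib shRNA of the same name in each, many of the same transcripts changed against control shRNA. The values below are about those that did not change alike. For each gene the knockdown effect in KP1 was subtracted from the knockdown effect in 16T, an effect being the log2 fold change of cells with the Nfib shRNA over cells with the control shRNA. A difference above 0 therefore means that the transcript stood higher, relative to its own control, in 16T than in KP1. Genes were kept where the authors' deposited table listed them under 1 gene name with a mean normalized count of at least 100, which left 12287 of the 28112 rows in the table. A difference was called where its Benjamini-Hochberg adjusted p, from a Wald test with the 2 errors added as independent, was below 0.05, and 4229 genes (34.4%) were called. Of all genes 16.2% were called higher in 16T and 18.3% lower in 16T, and counts within gene groups are to be read against these shares. The gene groups and their members were chosen with earlier results of these data known, which limits such counts.

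The 4 groups were 16T-shLuc, 16T-sh2, KP1-shLuc and KP1-sh2, with 2 samples each, 8 of the 12 samples of the series. Both lines were derived from SCLC tumors of mice lacking Trp53 and Rb1, so these losses are shared by knockdown and control cells, and both are labelled Nfib high; each is a single tumor-derived line, grown as floating spheres in RPMI medium with 10% FBS. The remaining 4 samples are KP22, a line of the same genotype labelled Nfib low, with an empty vector or with Nfib cDNA. The labels do not state whether duplicates came from separate cultures, and p-values then measure the spread between these samples, which may be technical. The authors' deposited table holds fitted effects with their SEs, not values per sample, so the depth of each library, the value in each sample and the number of samples showing a direction are unknown here.

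NFIB, the product of Nfib, belongs to the nuclear factor I (NFI) proteins, which bind DNA as dimers and can activate or repress transcription. In small cell lung cancer, a neuroendocrine tumor that arises with loss of p53 and RB, NFIB is often amplified or highly expressed and is tied to metastatic spread. Among the gene groups that differed between the lines were those of the response to low oxygen. In that response the oxygen-regulated factor HIF1A escapes hydroxylation by the EGLN enzymes and degradation through VHL, and pairs with ARNT. The pair binds short motifs, among them those with the core ACGTG, near genes of glucose uptake, glycolysis, angiogenesis and collagen processing.

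The neuroendocrine marker list was expressed. In the authors' deposited table its 12 members had mean normalized counts of at least 2765, while the 15 leukocyte markers summed to 217.7 with 2 at 0. The 12 fibroblast markers summed to 2771, of which 2220 was Pdgfra, and 3 were at 0. The 10 endothelium markers summed to 3475, of which 2353 was Vwf, and 2 were at 0. The 19 airway and alveolar markers summed to 12121, led by the tubulin Tubb4b at 5660, which most dividing cells also express, and 4 were at 0. These means run over all libraries of the authors' fit, so they cannot be given by line. In bulk RNA, fewer cells of a type and less RNA per cell cannot be told apart.

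Nfib itself, at chr4:82290173-82505779 on mm10, fell in both lines and fell less in 16T. In the authors' deposited table its effect was −1.08 ± 0.035 in 16T and −1.32 ± 0.035 in KP1 (SE), which leaves 47.2% and 40.0% of the control level. The difference of 0.24 (95% interval 0.14 to 0.34) was called, with adjusted p = 1.9e-05. In KP22 with Nfib cDNA the deposited effect on Nfib was 1.80 ± 0.036. The related Nfia rose in 16T alone in the authors' deposited table, by 0.72 ± 0.13 against 0.020 ± 0.13 in KP1, a difference of 0.70. Nfix fell in 16T, at −0.35 ± 0.056, against a deposited effect of −0.044 ± 0.056 in KP1, a difference of −0.30. Both differences lost their call when a t distribution with 6 degrees of freedom stood in for the normal reference, and that of Nfic, −0.15, was not called.

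Over all 12287 genes the effects in the lines went together only in part, with Pearson's r across genes of 0.483; genes are not independent replicates, and the coefficient is a description. Medians of the deposited effects were −0.05 in 16T and −0.01 in KP1, and the median difference was −0.03. The median SE was 0.086 in each line and 0.122 for the difference. Among called differences the median size was 0.45 on the log2 scale, 591 were at least 1 (366 higher and 225 lower in 16T) and 91 were at least 2 (73 higher and 18 lower). With the t reference 1843 differences were called, 982 higher and 861 lower in 16T. Recentring each line on its median gene turned the balance from 47.0% of calls higher in 16T to 54.2%, so which side held more genes is not settled. With 2 samples a group, 190 of the called genes had an SE above 0.25 in a line, among them 19 of the 50 largest.

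**Figure D1:**
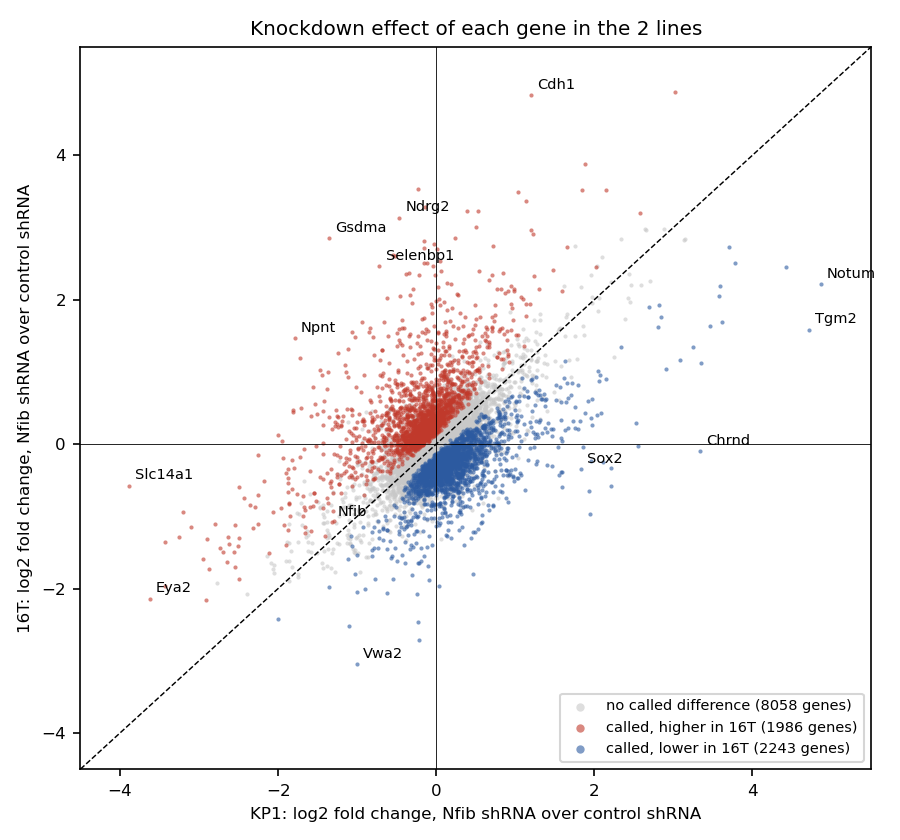
Knockdown effects of 12287 genes, as log2 fold changes of Nfib shRNA over control shRNA in KP1 (horizontal axis) and 16T (vertical axis); points are genes, red if called higher in 16T, blue if called lower and grey if not called, and the dashed line marks equal effects. Labelled genes lie far from that line, such as Cdh1 at 4.83 in 16T and 1.20 in KP1, except Nfib, at −1.08 and −1.32.

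Most called differences were of degree or of presence, and fewer were of direction. By the adjusted p-values of the authors' deposited table, 22.3% of genes rose and 28.5% fell in 16T, and 19.5% rose and 21.6% fell in KP1. A call in 1 line only, together with a called difference, was found for 2645 genes (62.5% of the called differences): 734 rose and 968 fell in 16T alone, 503 rose and 440 fell in KP1 alone. Opposite calls were found for 647 genes (15.3%), of which 342 rose in 16T and fell in KP1 and 305 did the reverse. Another 780 genes changed the same way in both lines by different amounts, 465 of them more in 16T. A call in 1 line does not by itself make a difference between lines: of 3008 genes called in 16T and not in KP1, 1702 (56.6%) had a called difference, and of 1822 called in KP1 and not in 16T, 943 (51.8%).

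Genes of glycolysis were higher in 16T almost throughout. Of 27 measured enzymes, glucose and lactate transporters and regulators, 22 were higher in 16T and 0 lower, with a median difference of 1.19 against −0.03 for all genes; with the t reference 21 were higher. Within 16T, 23 of them rose and 1 fell, while 2 rose and 11 fell in KP1, by the authors' deposited table. The largest difference was that of Pdk1, the kinase that shuts pyruvate dehydrogenase, at 2.15 ± 0.067 in 16T and −0.29 ± 0.065 in KP1 in the authors' deposited table, a difference of 2.44 ± 0.093 (adjusted p = 4.26e-148). Aldoa, an aldolase, had deposited effects of 2.34 ± 0.037 and −0.016 ± 0.036, a difference of 2.36, so its level was 508% of control in 16T and 98.9% in KP1. The lactate exporter Slc16a3 differed by 2.33, its deposited effects being 2.40 ± 0.065 and 0.064 ± 0.063. Pfkp, a phosphofructokinase, differed by 2.15, and here both lines had calls, 1.71 ± 0.052 in 16T and −0.43 ± 0.051 in KP1 in the authors' deposited table.

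The range within the pathway was wide. Gapdh, at a deposited mean of 63009 counts, differed by 0.94 ± 0.12, and Hk1, the hexokinase of most tissues, by 0.30 ± 0.056, while the inducible hexokinase Hk2 differed by 2.03 ± 0.14. Gapdh shares reads with many near-identical pseudogene copies, and its value is uncertain for that reason. The neuronal enolase Eno2 rose in both lines, by 0.90 ± 0.080 in 16T and 0.81 ± 0.076 in KP1 in the authors' deposited table, and its difference of 0.09 (95% interval −0.12 to 0.31) was not called, whereas its ubiquitous relative Eno1 differed by 1.66 ± 0.061. Ldhb, at 0.25, Pfkfb2, at −0.10, Pfkfb1, at −0.61, and Slc2a3, at 0.93 with an SE of 0.45, were the other 4 members without a call. In KP22 with Nfib cDNA, 2 of the 27 rose and 21 fell by the authors' deposited table, against 26.3% and 23.9% of all genes.

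HIF targets outside glycolysis, a list drawn up with earlier results of these data known, were higher in 16T too. Whether the listed genes, Selenbp1 among them, are targets of HIF in these lines was not tested. Of 41 listed, 34 were measured at a mean of at least 100, 28 were higher in 16T and 0 lower, and the median difference was 1.08; the t reference gave 26. Within 16T, 28 rose and 0 fell, and in KP1 3 rose and 18 fell, by the authors' deposited table. Its KP22 values, with Nfib cDNA, had 5 of the 34 rising and 13 falling, against 26.3% and 23.9% of all genes. Selenbp1, a methanethiol oxidase, differed by 3.18 ± 0.13, a 9.06-fold gap between the lines' fold changes, with deposited effects of 2.46 ± 0.094 in 16T and −0.72 ± 0.091 in KP1. Prolyl hydroxylases that mature collagen were near it: P4ha2 differed by 3.12 ± 0.13 (deposited effects 2.60 and −0.52) and P4ha1 by 2.71 ± 0.070 (2.37 and −0.34). Bnip3, a mitophagy receptor, differed by 2.86 ± 0.080, with deposited effects of 2.71 ± 0.058 and −0.15 ± 0.055. Ankrd37 differed by 2.80 ± 0.19 and the angiogenic factor Vegfa by 2.74 ± 0.11. Ankrd37 had no call in KP1 in the authors' deposited table, at −0.028 ± 0.12, whereas Vegfa fell there, at −0.38 ± 0.074. The 7 listed targets left out for low means were Car9, Car12, Adm, Ppp1r3b, Ppp1r3c, Angptl4 and Ppfia4. Car9 stood at 8.93 and Car12 at 9.38 mean normalized counts in the authors' deposited table.

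Genes that set the level of HIF differed less, and not in one direction. Of 10 measured regulators 2 were higher and 5 lower in 16T (2 and 2 with the t reference), with a median difference of −0.18. Those higher were the oxygen-sensing hydroxylases Egln3, at 1.86 ± 0.12, and Egln1, at 0.80 ± 0.087, both of which are themselves induced by HIF. Egln3 rose in 16T, at 1.39 ± 0.088, and fell in KP1, at −0.46 ± 0.083, in the authors' deposited table. Cited2, a competitor of HIF for its coactivators, was lower in 16T by −0.47 ± 0.10, having risen in both lines in the authors' deposited table, by 0.35 ± 0.069 and 0.82 ± 0.070. The partner subunit Arnt2 was lower by −0.44 ± 0.10. Hif1a differed by −0.26 ± 0.067 and Vhl by −0.33 ± 0.12, calls that the t reference did not keep. Arnt, at 0.17 ± 0.089, was not called, and Epas1, which encodes the HIF2A subunit, had a mean of 8.38 in the authors' deposited table and was not assessed.

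**Figure D2:**
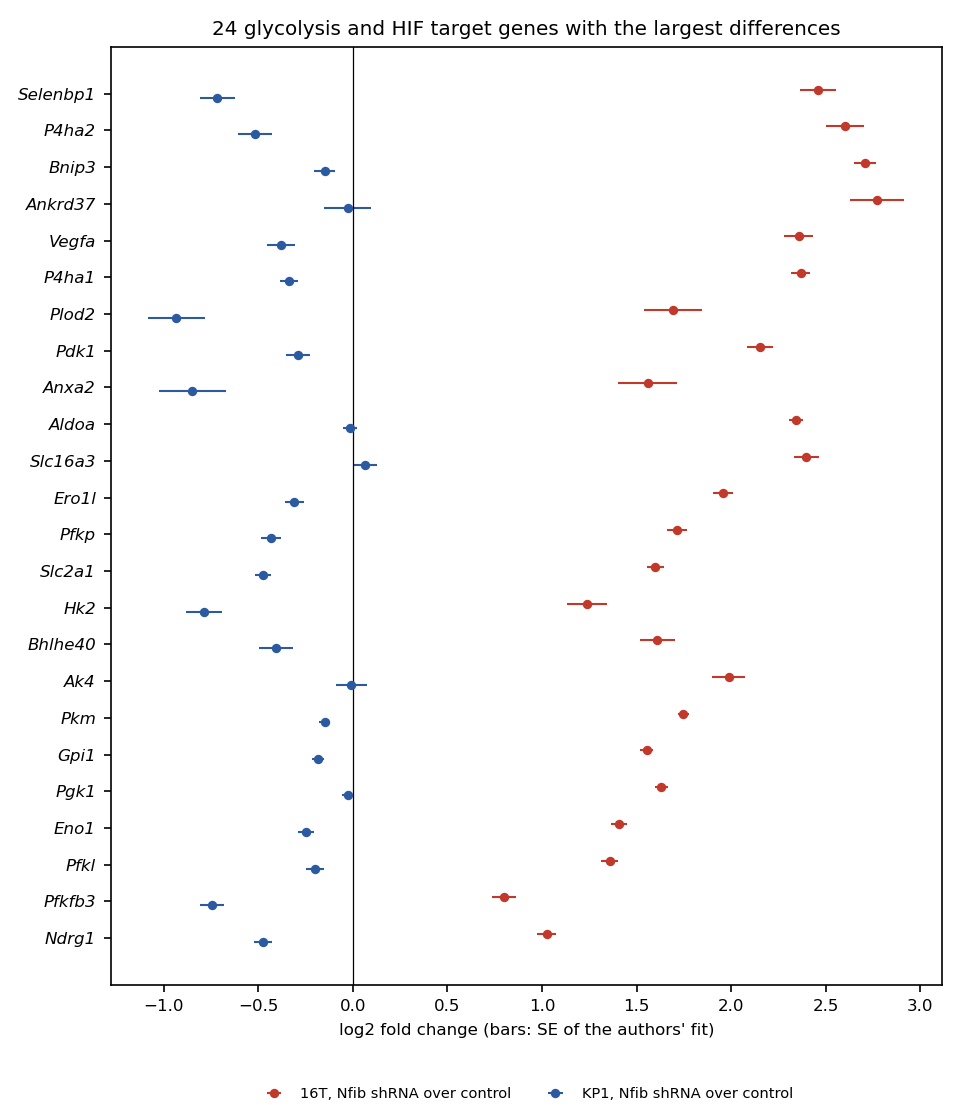
Deposited log2 fold changes of Nfib shRNA over control shRNA in 16T (red) and KP1 (blue), with bars for the SE, for the 24 glycolysis and HIF target genes with the largest differences, in order of the difference. Red points run from 0.80 for Pfkfb3, a regulator of glycolysis, to 2.77 for Ankrd37, and blue points from −0.93 for Plod2, a collagen lysyl hydroxylase, to 0.064 for Slc16a3.

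Promoters are shown for 4 of these genes, because ACGTG, the form of the HIF core searched here, can be read in 3 of them and not in the other. The sequences are RefSeq's, on GRCm38.p6, and run over the 250 bases before the start on the strand of the gene; capitals mark ACGTG or its reverse complement CACGT, and where they overlap they print as CACGTG. P4ha2 lies at chr11:54100674-54100923 on the plus strand, Bnip3 at chr7:138909507-138909756, Ankrd37 at chr8:45999851-46000100 and Pfkp at chr13:6648772-6649021, all 3 on the minus strand. Pfkp holds no match to ACGTG or CACGT in this window, and it differed by 2.15. Other forms of the HIF core were not searched, so a HIF site in this window is not excluded.
P4ha2: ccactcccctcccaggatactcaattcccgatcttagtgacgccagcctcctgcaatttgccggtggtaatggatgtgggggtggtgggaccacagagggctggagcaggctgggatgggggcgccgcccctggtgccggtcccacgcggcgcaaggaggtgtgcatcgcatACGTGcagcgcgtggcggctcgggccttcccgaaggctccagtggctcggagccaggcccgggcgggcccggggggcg
Bnip3: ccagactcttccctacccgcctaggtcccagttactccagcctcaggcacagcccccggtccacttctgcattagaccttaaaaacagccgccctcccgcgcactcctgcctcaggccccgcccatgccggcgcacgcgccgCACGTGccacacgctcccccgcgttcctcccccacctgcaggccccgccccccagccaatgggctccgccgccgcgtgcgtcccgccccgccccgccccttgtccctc
Ankrd37: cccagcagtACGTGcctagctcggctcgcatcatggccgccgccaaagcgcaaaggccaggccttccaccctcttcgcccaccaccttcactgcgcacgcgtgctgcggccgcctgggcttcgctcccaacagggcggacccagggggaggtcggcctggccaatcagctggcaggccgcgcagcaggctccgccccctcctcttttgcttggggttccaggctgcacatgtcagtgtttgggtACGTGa
Pfkp: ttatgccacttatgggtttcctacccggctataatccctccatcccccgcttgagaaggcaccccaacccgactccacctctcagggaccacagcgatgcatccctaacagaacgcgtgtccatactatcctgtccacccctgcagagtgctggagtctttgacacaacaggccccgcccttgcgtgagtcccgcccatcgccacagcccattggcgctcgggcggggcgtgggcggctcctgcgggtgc
RefSeq promoters matched 9153 of the 12287 genes by symbol. ACGTG on either strand was present in 58.8% of the 51 matched genes of the glycolysis and HIF target lists, against 25.9% of all matched genes. These lists were made up of glycolysis genes and HIF targets, so that contrast describes the lists and not the difference between the lines. Of the 42 matched list genes called higher in 16T, 61.9% held the core. Among all genes called higher in 16T the share was 29.1%, and among those called lower 25.7%. Restricted to genes with a single promoter in the table the shares were 55.9% of 34 list genes and 22.9% of 7245 genes. Median GC content was 61.9% in the list and 60.4% overall. The full palindromic NFI site, TTGGC followed after 5 bases by GCCAA, occurred in 3 of the 9153 windows, too few to compare sets of genes. The shorter motif TTGGCA, which begins with the same TTGGC, was present on either strand in 11.5% of all matched genes. Its share was 12.3% among genes called higher in 16T and 12.3% among those called lower. In the glycolysis and HIF target lists it was 17.6% of 51 genes. Restricted to a single promoter, it was 2.94% of 34 list genes and 9.4% of 7245 genes. A match is a description of the letters and not evidence of binding.

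Genes of mitochondrial respiration were lower in 16T. Of 66 measured subunits of the respiratory chain and ATP synthase, 1 was higher and 40 were lower in 16T, with a median difference of −0.31; the t reference gave 0 and 25. Within 16T, 1 rose and 42 fell, whereas in KP1 23 rose and 8 fell, by the authors' deposited table. Cox7a2, a subunit of cytochrome c oxidase, had the largest difference of the list at −1.31 ± 0.12, with deposited effects of −0.58 ± 0.088 in 16T and 0.74 ± 0.088 in KP1. Uqcrq of complex III differed by −0.92 ± 0.12, Ndufb2 of complex I by −0.88 ± 0.15 and Ndufa4 by −0.83 ± 0.062. All 4 fell in 16T and rose in KP1 in the authors' deposited table. Sdha of complex II was the member called higher, at 0.16 ± 0.058, a call lost with the t reference. With Nfib cDNA in KP22, 1 of the 66 rose and 17 fell by the authors' deposited table, against 26.3% and 23.9% of all genes.

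Replication genes were lower in 16T as well. Among 48 genes of DNA replication and other E2F targets, 0 were higher and 32 lower, with a median difference of −0.28; the t reference gave 0 and 20, and recentring 1 and 27. Within 16T, 3 rose and 32 fell, while in KP1 16 rose and 6 fell, by the authors' deposited table. Cyclin E1 (Ccne1), which starts S phase, differed by −0.77 ± 0.088, thymidylate synthase (Tyms) by −0.76 ± 0.068, the repressor E2f7 by −0.69 ± 0.094 and thymidine kinase (Tk1) by −0.68 ± 0.11. Ccne1 and Tyms fell in 16T and rose in KP1 in the authors' deposited table, Tk1 fell in 16T alone and E2f7 rose in KP1 alone. Fewer mitotic genes were lower in 16T, with 0 of 42 higher and 13 lower (0 and 5 with the t reference). Their median difference was −0.08. These genes did not fall as a set in 16T: 12 rose and 9 fell there, while 19 rose and 1 fell in KP1. Their median deposited effects were 0.0093 in 16T and 0.11 in KP1. The kinetochore protein Spc24 differed by −0.79 ± 0.12, the passenger complex protein Cdca8 by −0.49 ± 0.062 and the mitotic kinase Cdk1 by −0.43 ± 0.069. In KP22 with Nfib cDNA 36 of the 48 replication genes rose and 1 fell in the authors' deposited table, and likewise 36 of the 42 mitotic genes rose and 1 fell. The shares of all genes there were 26.3% and 23.9%.

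Genes of sterol synthesis fell in KP1 and were mixed in 16T. Of 25 measured genes 15 were higher in 16T and 1 lower, with a median difference of 0.30; the t reference gave 13 and 0. Within KP1, 0 rose and 17 fell, and in 16T 11 rose and 5 fell, by the authors' deposited table. There 18 of the 25 rose and 3 fell in KP22 with Nfib cDNA, against 26.3% and 23.9% of all genes. Sc4mol, a sterol demethylation enzyme, differed by 0.94 ± 0.082, Hmgcs1, which makes HMG-CoA, by 0.71 ± 0.065, and the sterol carrier Stard4 by 0.65 ± 0.10. In fatty acid synthesis 7 of 17 genes were higher and 3 lower (7 and 1 with the t reference). The desaturases Scd1, at 1.67 ± 0.28, and Scd2, at 0.97 ± 0.054, were higher in 16T, and fatty acid synthase (Fasn) was lower at −0.53 ± 0.049. Fasn fell in 16T, at −0.52 ± 0.035, and was at 0.0095 ± 0.035 in KP1 in the authors' deposited table.

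**Figure D3:**
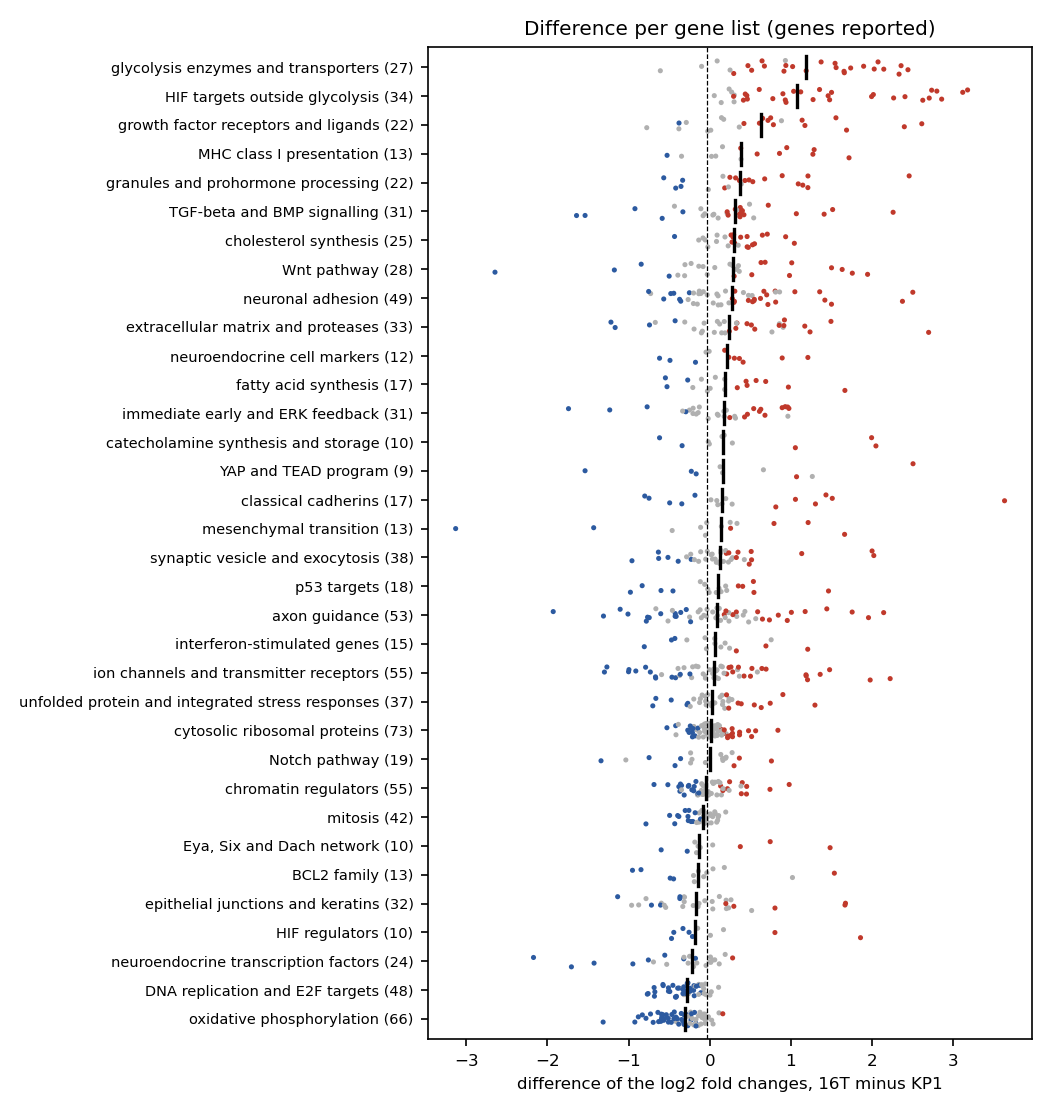
Difference of the log2 fold changes (16T minus KP1) of each measured gene, for the lists with at least 9 measured genes, with their number in brackets; points are genes, red if called higher in 16T, blue if called lower and grey if not called, thick bars are list medians and the dashed line is the median of all genes, −0.03. Medians run from 1.19 for glycolysis down to −0.31 for oxidative phosphorylation.

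The largest differences were not drawn from metabolism alone. Among called genes with an SE of at most 0.25 in each line, the 12 with the largest differences towards 16T were Cdh1, Ndrg2, Slc14a1, Npnt, Selenbp1, Cartpt, P4ha2, Ace, Bnip3, 9430021M05Rik, Ankrd37 and Vegfa. Cdh1, which encodes E-cadherin, rose in both lines, by 4.83 ± 0.13 in 16T and 1.20 ± 0.068 in KP1 in the authors' deposited table, and the difference was 3.64 ± 0.14, a ratio of 12.4. Ndrg2, a stress-responsive relative of Ndrg1, differed by 3.61 ± 0.17, with deposited effects of 3.14 ± 0.13 and −0.47 ± 0.11. Slc14a1, a urea transporter, reached its place by falling further in KP1: its deposited effects were −0.57 ± 0.18 in 16T and −3.89 ± 0.20 in KP1, a difference of 3.31 ± 0.27. Cartpt, a neuropeptide precursor, differed by 3.17 ± 0.24 (deposited effects 2.62 and −0.55). Ace, the angiotensin-converting enzyme, differed by 2.97 ± 0.29, with no call in KP1, where the authors' deposited table gives −0.15 ± 0.19. The transcript 9430021M05Rik differed by 2.84 ± 0.26.

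Towards KP1 the 12 largest were Notum, Col9a2, Cdhr1, Far2, Iapp, St3gal1, Sox2, Vwa2, Vwa5b1, Epha2, Fam81a and Slc24a2. Notum, a secreted enzyme that inactivates Wnt ligands, rose in both lines, by 2.21 ± 0.15 in 16T and 4.86 ± 0.20 in KP1 in the authors' deposited table, a difference of −2.65 ± 0.25. Col9a2, a collagen IX chain, stood at −0.023 ± 0.16 in 16T and rose by 2.56 ± 0.15 in KP1 in the authors' deposited table, a difference of −2.58 ± 0.22. Cdhr1, a photoreceptor cadherin, differed by −2.53 ± 0.15, and Far2, which makes fatty alcohols, by −2.36 ± 0.25. St3gal1, a sialyltransferase, fell in 16T, at −0.59 ± 0.089, and rose in KP1, at 1.59 ± 0.095 in the authors' deposited table, a difference of −2.18 ± 0.13. Sox2, a progenitor and lineage factor of the airway, likewise fell in 16T, at −0.34 ± 0.11, and rose in KP1, at 1.83 ± 0.20, in the authors' deposited table, a difference of −2.17 ± 0.22. Vwa2 fell in both lines in the authors' deposited table, reaching −3.05 ± 0.17 in 16T, and differed by −2.05 ± 0.21. Vwa5b1 and Epha2, an ephrin receptor, rose in both and further in KP1, with differences of −1.97 ± 0.091 and −1.93 ± 0.28.

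Another 4 genes with an SE above 0.25 in a line were chosen after their values were seen. Pla2g2f, a secreted phospholipase, differed by 3.76 ± 0.45, and the mucin Muc2 by 3.42 ± 0.35, both with a rise in 16T alone in the authors' deposited table. Chrnd, the delta subunit of the muscle nicotinic receptor, differed by −3.43 ± 0.40, with deposited effects of −0.094 ± 0.25 in 16T and 3.34 ± 0.31 in KP1. Complement C3 rose in both lines, by 4.88 ± 0.30 and 3.02 ± 0.29 in the authors' deposited table, a difference of 1.86 ± 0.42.

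Some genes rose in 1 line and fell in the other. The 10 whose smaller effect was largest were Npnt, Gsdma, Fgf11, Nxph4, Edil3, Igfbp2, Ncam2, F3, Dcc and Pcdh7, and each of them rose in 16T and fell in KP1. Gsdma, a pore-forming gasdermin, had deposited effects of 2.85 ± 0.27 and −1.35 ± 0.15, a difference of 4.20 ± 0.31 and a ratio of 18.4. Npnt, a basement membrane ligand of integrins, had deposited effects of 1.47 ± 0.13 and −1.79 ± 0.12, so its level was 276% of control in 16T and 28.9% in KP1. Nxph4, a neurexin ligand, differed by 2.91 ± 0.38, and Igfbp2, which binds insulin-like growth factors, by 2.61 ± 0.11. Fgf11, an intracellular FGF homolog, differed by 2.52 ± 0.29, and F3, the tissue factor that starts coagulation, by 2.51 ± 0.26. The adhesion molecules Ncam2, at 2.50 ± 0.22, Pcdh7, at 2.38 ± 0.24, and Edil3, at 2.25 ± 0.17, and the netrin receptor Dcc, at 2.14 ± 0.15, complete the set.

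KP22 shares no samples with either line, and its effects are set beside these genes as another line, with Nfib raised instead of lowered. Npnt, Gsdma, Fgf11 and Dcc fell in KP22 with Nfib cDNA, at −1.39 ± 0.13, −1.05 ± 0.15, −1.21 ± 0.28 and −1.45 ± 0.16 in the authors' deposited table. Igfbp2, Pcdh7 and Ncam2 rose there, by 1.59 ± 0.079, 1.17 ± 0.25 and 0.53 ± 0.18 in the authors' deposited table. Nxph4, Edil3 and F3 had no call. Of the 342 genes that rose in 16T and fell in KP1, 22.5% rose and 42.1% fell in KP22, with a median of −0.12. Of the 305 that fell in 16T and rose in KP1, 29.8% rose and 28.2% fell, with a median of 0.014. Over all genes 26.3% rose and 23.9% fell in KP22.

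**Figure D4:**
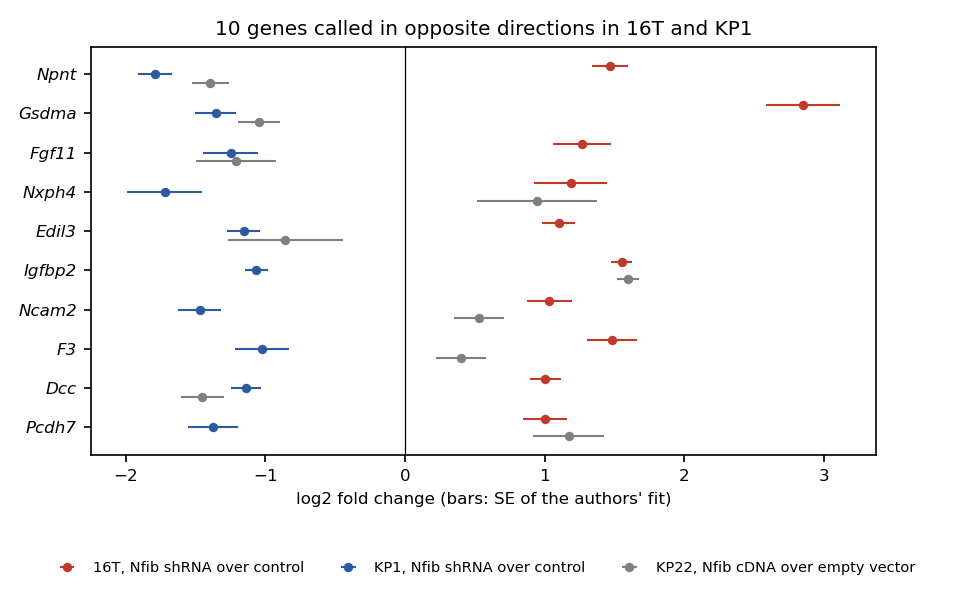
Deposited log2 fold changes, with bars for the SE, of the 10 genes with opposite calls whose smaller effect was largest, in 16T (red), KP1 (blue) and KP22 with Nfib cDNA (grey). Red points lie right of 0 and blue points left of it by choice of the genes, while grey points fall on either side, from −1.45 for Dcc to 1.59 for Igfbp2.

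Neuroendocrine genes split by role. The transcription factors leaned towards KP1: of 24 measured 1 was higher and 8 lower in 16T (1 and 6 with the t reference), with a median difference of −0.22. Neurog3, the endocrine progenitor factor, differed by −1.71 ± 0.39, and Neurod4 by −1.43 ± 0.22. Neurod4 fell in 16T, at −1.61 ± 0.16, with −0.19 ± 0.15 in KP1 in the authors' deposited table. Isl1 differed by −0.76 ± 0.12 and St18 by −0.55 ± 0.065, while the zinc finger factor Myt1 was higher at 0.28 ± 0.053.

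Granule and prohormone genes leaned towards 16T. Of 22 measured 14 were higher and 4 lower (11 and 3 with the t reference), with a median difference of 0.38. By the authors' deposited table these rose in both lines more often than they fell, 15 against 5 in 16T and 12 against 5 in KP1, and 10 of the 18 called differences were between effects called with the same sign in both lines. Secretogranin II (Scg2) rose by 2.12 ± 0.050 in 16T and 0.91 ± 0.049 in KP1 in the authors' deposited table, a difference of 1.21 ± 0.070. The pentraxin Nptx1 differed by 2.46 ± 0.12, Sez6l by 1.21 ± 0.26 and the granule phosphatase homolog Ptprn by 1.15 ± 0.059. Chromogranin B (Chgb) went opposite ways, rising by 0.38 ± 0.057 in 16T and falling, at −0.52 ± 0.054, in KP1 in the authors' deposited table, while chromogranin A (Chga) fell in both, with a difference of 0.18 ± 0.052. Dner, at −0.57 ± 0.078, and Cadps2, at −0.42 ± 0.064, were lower in 16T. In KP22 with Nfib cDNA 3 of the 22 rose and 16 fell in the authors' deposited table, against 26.3% and 23.9% of all genes.

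Secreted and transmitter products were as divided. Only 4 of 20 listed neuropeptide genes reached the mean of 100: Cartpt, above, and Calca, at 0.41 ± 0.069, were higher in 16T, and Iapp, at −2.18 ± 0.27, and Grp, at −2.23 ± 0.46, were lower. Iapp, which encodes amylin, rose in KP1 alone, and Grp, gastrin-releasing peptide, fell in 16T alone, at −2.46 ± 0.32 in the authors' deposited table. Among 10 genes of amine synthesis and storage 3 were higher and 2 lower, the same with the t reference. Tph1, the enzyme that commits tryptophan to serotonin, rose in 16T by 1.61 ± 0.070 and fell in KP1, at −0.44 ± 0.062, in the authors' deposited table, a difference of 2.05 ± 0.094. Tyrosine hydroxylase (Th) rose in both lines, by 3.88 ± 0.19 and 1.88 ± 0.10 in the authors' deposited table, with a 95% interval of the difference from 1.58 to 2.42. The vesicular transporter Slc18a1 differed by 1.06 ± 0.17, and aromatic amino acid decarboxylase (Ddc), which rose in both lines, by −0.62 ± 0.052.

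Among 38 synaptic vesicle genes 10 were higher and 6 lower in 16T (7 and 3 with the t reference), led by the fusion protein Stx1a, at 2.02 ± 0.38, and Syt7, a calcium sensor of slow release, with deposited effects of 1.94 ± 0.044 in 16T and −0.063 ± 0.039 in KP1. Sv2c, at −0.96 ± 0.17, was lower. Of 12 listed nicotinic receptor subunits 3 were measured, and Chrnd, given above, was not on that list. Chrna3 rose by 2.05 ± 0.17 in 16T and 3.58 ± 0.22 in KP1 in the authors' deposited table, a difference of −1.53 ± 0.28, and its genomic neighbour Chrnb4 differed by −0.98 ± 0.34, a call lost with the t reference and when effects were divided by that on Nfib. Of 55 ion channels and transmitter receptors 17 were higher and 13 lower (6 and 4 with the t reference), with a median difference of 0.05. The mechanosensitive channel Piezo2, at 2.22 ± 0.27, and the neuropeptide Y receptor Npy1r, at −1.27 ± 0.17, rose in both lines in the authors' deposited table.

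Growth factor receptors and ligands were mostly higher in 16T. Of 22 measured 12 were higher and 1 lower (11 and 0 with the t reference), with a median difference of 0.63, and the authors' deposited table gives 12 that rose and 4 that fell in 16T against 4 and 12 in KP1. Igfbp2 is described above. Gfra1, a co-receptor for GDNF, differed by 2.40 ± 0.29, and its signalling partner Ret by 1.69 ± 0.17. Ret rose in both lines in the authors' deposited table, by 2.91 ± 0.14 and 1.22 ± 0.081, and Gfra1 in 16T alone, by 2.07 ± 0.20. Igfbp5, among the more abundant of the list at a deposited mean of 33245, rose in 16T by 0.48 ± 0.031 and fell in KP1, at −1.07 ± 0.031, a difference of 1.56 ± 0.043. Feedback genes of ERK signalling such as Dusp4, at 0.96 ± 0.13, and Etv5, at 0.93 ± 0.14, were higher in 16T and Spry2, at −0.77 ± 0.18, was lower, among 31 early and feedback genes with 11 higher and 4 lower (5 and 2 with the t reference).

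Morphogen pathways are described list by list. In the Wnt list 10 of 28 genes were higher and 4 lower in 16T (7 and 4 with the t reference), with a median of 0.29. The 4 lower were Notum, Nkd1, at −1.18 ± 0.12, Apcdd1, at −0.84 ± 0.18, and Axin2, at −0.50 ± 0.10, each known as a feedback inhibitor induced by Wnt. In the authors' deposited table Nkd1 rose by 1.26 ± 0.086 in KP1 and was at 0.080 ± 0.084 in 16T, and Axin2 rose by 0.54 ± 0.069 in KP1 and was at 0.044 ± 0.070 in 16T. Higher were the secreted antagonist Wif1, at 1.95 ± 0.33, the ligand Wnt4, at 1.76 ± 0.21, and Dkk2, at 1.63 ± 0.48. Also higher was the receptor Fzd10, at −0.40 ± 0.19 in 16T and −1.90 ± 0.18 in KP1 in the authors' deposited table. Among 31 TGF-beta and BMP genes 14 were higher and 5 lower (6 and 4 with the t reference). Bmp2 rose in 16T by 0.44 ± 0.11 and fell in KP1, at −1.82 ± 0.12, in the authors' deposited table, a difference of 2.26 ± 0.17, whereas Bmp7 differed by −1.54 ± 0.14 and the inhibitory Smad6 by −1.64 ± 0.28. In the Notch list 3 of 19 were higher (15.8%) and 4 lower (21.1%), shares near those of all genes, and the t reference gave 2 and 3. The glycosyltransferase Lfng differed by 0.76 ± 0.084 and its relative Mfng by −0.75 ± 0.076. Of 9 genes of the YAP and TEAD program 2 were higher and 3 lower, and the angiomotins Amotl1, at 1.07 ± 0.13, and Amotl2, at −1.54 ± 0.12, took opposite sides; the t reference gave 2 and 1.

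Adhesion and guidance genes differed in both directions. Of 49 neuronal adhesion genes 20 were higher and 7 lower in 16T (11 and 2 with the t reference), with a median of 0.28. Tenm2, a teneurin, fell in KP1 alone, at −1.19 ± 0.18 against 0.31 ± 0.16 in 16T in the authors' deposited table, and Opcml differed by 1.42 ± 0.21, while Slitrk6, at −0.75 ± 0.11, and Ptprm, at −0.57 ± 0.12, were lower. Axon guidance genes were nearly balanced, 15 higher and 14 lower of 53 (13 and 5 with the t reference). Ephb1 fell in both lines and further in KP1, −1.14 ± 0.16 against −3.10 ± 0.12 in the authors' deposited table, and Sema6a fell in KP1 alone, at −1.94 ± 0.12. Among 17 cadherins and catenins 6 were higher and 5 lower (3 and 3 with the t reference), and without genes of chromosome 8 the counts were 1 and 5. Cdh13, at 1.30 ± 0.095, stood with Cdh1 on the higher side, and Cdh24, at −0.75 ± 0.11, on the lower.

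Single epithelial genes differed widely, while the list as a whole was called no more often than all genes. The keratins Krt8 and Krt18, which pair in simple epithelia, each differed by 1.67, rising in 16T and falling in KP1 in the authors' deposited table, and Krt18 had effects of 0.72 ± 0.050 and −0.95 ± 0.044; both share reads with pseudogene copies. Epcam, at −0.61 ± 0.071, and the junction protein F11r, at −0.72 ± 0.13, were lower in 16T, as was the epithelial factor Grhl1, at −1.14 ± 0.16. In all 5 of 32 epithelial genes were higher and 5 lower, 15.6% each way against 16.2% and 18.3% of all genes (3 and 4 with the t reference). Among 13 mesenchymal genes 4 were higher and 2 lower (2 and 1 with the t reference); Vim, the intermediate filament vimentin, fell in KP1, at −2.17 ± 0.18, with −0.51 ± 0.22 in 16T in the authors' deposited table, and Tgm2 rose in both, by 1.59 ± 0.28 and 4.72 ± 0.30. Of 33 matrix and protease genes 13 were higher and 4 lower (9 and 2 with the t reference). The collagen cross-linking oxidase Lox led at 2.70 ± 0.27, rising by 3.23 ± 0.20 in 16T and 0.53 ± 0.17 in KP1 in the authors' deposited table, followed by Adamts1, at 1.49 ± 0.33, and Thbs1, at 1.24 ± 0.10, and Thbs4 was lower at −1.22 ± 0.17.

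Genes of antigen presentation by MHC class I were mostly higher in 16T. Of 13 measured genes 7 were higher and 1 lower (5 and 0 with the t reference), with a median difference of 0.39, and 7 rose and 2 fell in 16T while 0 rose and 5 fell in KP1 by the authors' deposited table. H2-K1, a class I heavy chain, rose in 16T by 0.26 ± 0.061 and fell in KP1, at −0.69 ± 0.060, in the authors' deposited table, a difference of 0.95 ± 0.085. The peptide transporter subunit Tap2 differed by 1.27 ± 0.25 and the nonclassical H2-T23 by 1.72 ± 0.14. Heavy chain genes resemble each other and can share reads. When KP22 carried Nfib cDNA, 0 of the 13 rose and 9 fell in the authors' deposited table, against 26.3% and 23.9% of all genes. Among interferon-stimulated genes 3 of 15 were higher and 3 lower, 20% each way and near the shares of all genes (1 and 1 with the t reference), with the regulator Irf1 at 0.69 ± 0.16.

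Stress and survival genes differed singly. Of 37 unfolded protein response and integrated stress response genes 9 were higher and 5 lower in 16T (5 and 3 with the t reference): the pseudokinase Trib3 differed by 1.30 ± 0.13, and the serine synthesis enzymes Phgdh, at −0.70 ± 0.084, and Psat1, at −0.66 ± 0.055, were lower. Among 18 listed p53 targets, in cells without p53, 5 were higher and 4 lower (2 and 1 with the t reference), and Eda2r fell in both lines, at −1.96 ± 0.20 and −3.43 ± 0.25 in the authors' deposited table. In the BCL2 family 1 of 13 was higher and 4 lower (1 and 1 with the t reference): the death-promoting Bmf differed by 1.54 ± 0.12 and Bok by −0.95 ± 0.10. In the network of Eya, Dach and their partner genes 3 of 10 were higher and 2 lower (1 and 0 with the t reference), and Eya2 fell in both lines, at −2.14 ± 0.10 and −3.63 ± 0.12 in the authors' deposited table.

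Ribosomal proteins were called about as often as all genes. Of 73 cytosolic ribosomal proteins 15 were higher (20.5%, against 16.2% of all genes) and 11 lower (15.1%, against 18.3%), or 9 and 4 with the t reference, with a median difference of 0.01 and Rpl4, at 0.84 ± 0.071, farthest from it; these genes have many pseudogene copies, which makes single values uncertain. Of 55 chromatin regulators 10 were higher (18.2%) and 15 lower (27.3%), or 5 and 6 with the t reference, and recentring turned the balance to 15 and 9. The DNA demethylase Tet2 differed by 0.98 ± 0.13, the histone demethylase Kdm5b by 0.74 ± 0.072 and the deacetylase Hdac9 by −0.69 ± 0.13. Among markers of other cell types, Pdgfra differed by 0.72 ± 0.10, Vwf by −1.18 ± 0.18 and the surfactant gene Sftpc by −1.83 ± 0.36, and these were the only 3 called among the 15 measured fibroblast, endothelium, airway and leukocyte markers. Of the 12 neuroendocrine markers 7 were higher and 3 lower in 16T (4 and 2 with the t reference). Of these 10 called differences, 6 were between effects called with the same sign in both lines.

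By position, differences towards KP1 were frequent on parts of chromosomes 8 and 14. On chromosome 8, 73 of 682 genes (10.7%) were higher and 203 (29.8%) lower in 16T. Most of this came from starts between 60 and 100 Mb, where 15 of 263 genes (5.70%) were higher and 123 (46.8%) lower, with a median difference of −0.26. On the rest of the chromosome 13.8% of 419 genes were higher and 19.1% lower. The limits of the block were set with these differences known, so its contrast with the rest is a description. In the authors' deposited table the median effect within the block was 0.20 in KP1, with 132 genes that rose and 17 that fell, −0.055 in 16T, with 61 and 80, and 0.018 in KP22. Nkd1 and Npy1r, both lower in 16T, lie in this block at 88521344 and 66697422. The number of DNA copies of this block in the knockdown and control cells is not known here, and its part in these values was not tested. Chromosome 14 had 48 of 403 genes higher and 93 lower, with a median of −0.11, and some of its distal windows were lower. From 70 to 80 Mb 19 of 53 genes were lower and the median was −0.21. From 100 to 110 Mb 7 of 15 were lower, with a median of −0.44 and, in the authors' deposited table, 9 genes that rose and 0 that fell in KP1. From 110 to 120 Mb 4 of 10 were lower, with a median of −0.28, and from 120 to 130 Mb 9 of 19, with a median of −0.36. These last 3 windows hold fewer than 20 genes each. Other small windows of chromosome 14 did not all lean this way. From 80 to 90 Mb 0 of 4 genes were higher and 0 lower, and from 90 to 100 Mb 1 of 8 was lower. From 0 to 10 Mb 7 of 14 were higher and 0 lower, with a median of 0.35. On chromosome 9, from 120 to 130 Mb, 4 of 43 genes were higher and 15 lower, with a median of −0.21. Without chromosome 8, 3953 differences were called, 1913 higher and 2040 lower.

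**Figure D5:**
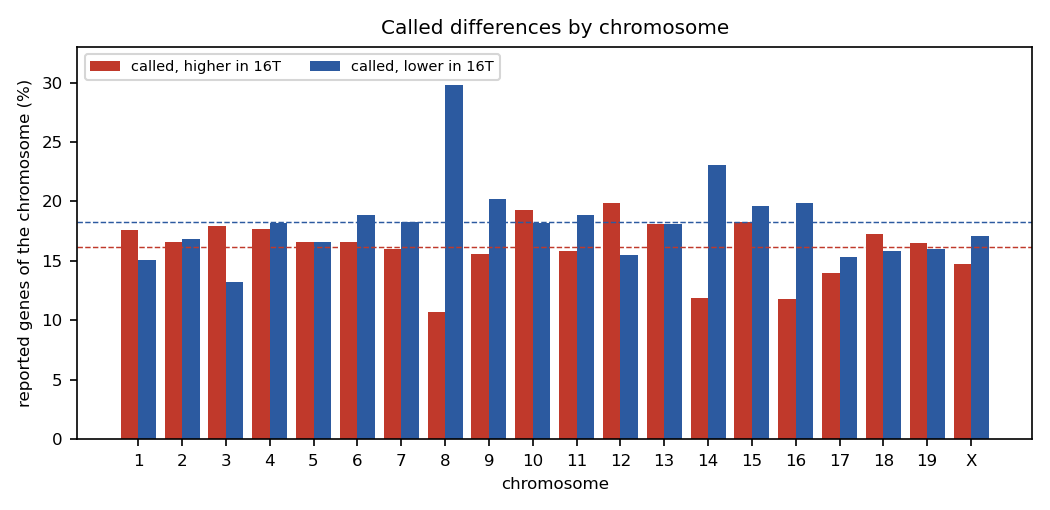
Percent of the genes of each chromosome called higher (red bars) or lower (blue bars) in 16T, with the percent over all genes, 16.2% and 18.3%, as dashed lines. Chromosome 8 has the tallest blue bar, 29.8%, and the shortest red bar, 10.7%.

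At the limit of 100 counts, genes just inside and just outside had wide errors. Inside, Runx1 at a deposited mean of 100.1 differed by −0.95 ± 0.52 and Ccdc78, also at 100.1, by −0.38 ± 0.41. Outside, Tuba8 at 99.98 differed by 0.46 ± 0.48 and 1810020O05Rik at 99.9 by −0.41 ± 0.72.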

How the data were processed

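RNA of 12 samples was extracted with a Qiagen RNeasy kit and made into libraries with an Illumina TruSeq v2 kit, per the labels' protocols. The submitters' processing notes name TopHat, bedtools, DESeq, DESeq2 and mm10, with no versions; the strandedness of counting is not given in the sources used here, so overlapping and antisense genes cannot be told apart. Per the file headers, the authors gave each row a signal, the normalized count averaged over libraries, and each comparison a log2 fold change, its SE, a test score and the deposited p-value before and after adjustment. The deposited exon intervals gave positions, with another column counting merged exons. The effects look shrunken towards 0, since the largest SE was 0.521. Directions are not in the headers and were read from Nfib, below 0 with shRNA and above 0 with cDNA.

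A test on values per sample had been planned and could not be run on this table. The difference was divided by the square root of the summed variances, referred to a normal distribution and adjusted over 15008 genes with 1 name and a mean of at least 10; calls are given for the 12287 with a mean of at least 100. Rows with joined names (4886) were left out. Python 3.11.15, pandas 2.3.3, numpy 2.4.6 and scipy 1.17.1 were used, and the script was tested on simulated data. Named genes are Nfib, the 12 largest called differences each way with SEs of at most 0.25, the 10 opposite-call genes whose smaller effect was largest, and up to 4 called members of each list each way, plus members named where a list is described. Members and the 42 lists were chosen with earlier results of these data known. Of the listed names, 2 matched by synonym and 5 were not found. Alternatives are given in the closing section. Results for 3 named genes are not reported here.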

Additional observations from a re-analysis of the deposited data

Results flagged for a closer look

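All of the following rest on the test of the difference between the 2 knockdown effects. That test called 4229 genes. Opposite calls in 16T and KP1 were found for 647 of them, and a call in 1 line only for 2645. The 10 opposite-call genes whose smaller effect was largest were Gsdma, with a difference of 4.20, Npnt, with 3.26, Nxph4, with 2.91, Igfbp2, with 2.61, Fgf11, with 2.52, F3, with 2.51, Ncam2, with 2.50, Pcdh7, with 2.38, Edil3, with 2.25, and Dcc, with 2.14 on the log2 scale. Each rose in 16T and fell in KP1. Groups of 2 samples are too small for a check of single outlying samples.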

How the results depend on the processing

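No paired analysis was possible because the table holds fitted effects and no values per sample; leaving out each replicate in turn and a refit in DESeq2 or edgeR were not run for the same reason. A t distribution with 6 degrees of freedom gave 1843 called differences, 982 higher and 861 lower in 16T, 259 with opposite calls and 1301 with a call in 1 line. SEs multiplied by 1.5 gave 1864, 991, 873, 214 and 1326. A test against a difference of 0.5 gave 439, 303, 136, 12 and 307. In these 3 settings fewer genes pass by construction, and every gene called was also called with the normal reference. All other settings kept the 5 counts within 1.5 times: totals ran from 3222 for means of at least 1000 to 4653 for effects before an approximate shrinkage, with 4477 for effects divided by that on Nfib. Recentring, by 0.046 in 16T and 0.014 in KP1, gave 4153 calls, 2251 higher and 1902 lower, of which 3888 were among the 4229. Recomputing the calls within each line gave 665 opposite genes. Recomputed calls and the count without chromosome 8 were chosen after seeing the data. That count left out genes after the same test and adjustment, so the calls of the remaining genes could not change. The same holds for means of at least 1000 and for SEs of at most 0.25 in each line. Means of at least 30 only added genes after the same test and adjustment, so the 4229 calls could not change there either. Of the 247 genes named by rule, 72 lost their call with the t distribution and 0 changed sign. Depth is unknown, and with 2 samples a group an SE estimated from few samples limits each call.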
